A study of Saccharomyces cerevisiae with 16 samples.

Results

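The 10 genes described here encode enzymes of the pentose phosphate pathway of Saccharomyces cerevisiae: ZWF1, SOL3, SOL4, GND1, GND2, RPE1, TKL1, TKL2, TAL1 and NQM1. They are 10 of the 6002 nuclear protein-coding genes measured. The genes were selected on their place in the pathway with the H3K18ac values of these same libraries around their starts already known, so the levels, ranges and paralog ratios near gene starts are given as a description. Calls from the fit across all genes are counted for the members beside the share over all genes, and nothing is read from them. H3K18ac, the acetylation of lysine 18 of histone H3, was measured by chromatin immunoprecipitation and sequencing in cells cycling in continuous culture (the Yeast Metabolic Cycle). The series holds 16 time points, the first at 48.32 h and the last at 51.95 h, with 1 library each. Every culture sample came from 1 strain of the CEN.PK background, mating type a, in which Spt7, a subunit of the SAGA acetyltransferase complex, carries a FLAG tag (SPT7-FLAG::natMX). No untagged strain and no other genotype or treatment was part of the comparison. The study's sampling scheme places time points 3 to 5 in the oxidative phase (OX), 6 to 11 in the reductive-building phase (RB) and 1, 2 and 12 to 16 in the reductive-charging phase (RC). These names serve for orientation only, since the sample labels give time points and no phases.

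The pentose phosphate pathway has an oxidative branch, which oxidizes glucose-6-phosphate and yields NADPH for biosynthesis and antioxidant defence, and a non-oxidative branch, which interconverts sugar phosphates and yields ribose-5-phosphate for nucleotides and erythrose-4-phosphate for aromatic amino acids. In yeast, 4 steps are covered by a pair of paralogs: SOL3 and SOL4 (6-phosphogluconolactonase), GND1 and GND2 (6-phosphogluconate dehydrogenase), TKL1 and TKL2 (transketolase), and TAL1 and NQM1 (transaldolase). SOL3, GND1, TKL1 and TAL1 encode the major enzymes of growing cells, and their partners the minor ones. H3K18ac is deposited mainly by Gcn5, the catalytic subunit of SAGA, and is found around the starts of active genes.

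The H3K18ac level of a region is its mean coverage (reads per base) divided by the mean coverage of the nuclear genome in the same library, so a level of 1 is the genome average. Unless stated otherwise the region is the 300 bp downstream of the first coding base, and ranges are the difference between the highest and lowest of the 16 values of log2(level + 0.1). With 1 library per time point there is no replicate of any value. Libraries held at least 6521927 to 9359720 reads, and member regions held between 56 and 580 reads per library. Intervals below are 95% Poisson intervals from these reads and cover counting error only. No base exceeded 102 reads in any library, which caps the level at between 2.59 (time point 15) and 3.71 (time point 14) and compresses the highest values. With each gene's mean log2 level over the 16 time points subtracted, neighbouring time points correlated across the genes tested with a median r of 0.73. Time points 16 and 1 were counted as neighbours. The lowest value, 0.19, was between time points 10 and 11, and it describes departures from the gene means only. H3 was not used here, so H3K18ac per nucleosome and nucleosome density cannot be told apart.

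SOL4 had by far the widest H3K18ac range of the pathway, and its partner SOL3 one of the narrower ones. Both encode 6-phosphogluconolactonase, which hydrolyses the lactone made by the first enzyme of the pathway. SOL4 (YGR248W) lies on chromosome VII from 985972 to 986739 on the plus strand (R64 assembly, coding region). Its level was 2.31 and 2.02 at time points 1 and 2, 1.27 at time point 3, 0.322 at time point 4 and 0.583 at time point 5. It was 1.15, 0.959, 0.872, 0.804 and 1.06 at time points 6 to 10. It was 1.97, 2.15, 2.05, 2.48, 2.08 and 2.55 at time points 11 to 16. SOL4 was thus at or above the genome average in RC, at its lowest in OX, near or below the average in most of RB, and high again from the last RB time point. The lowest value rested on 56 reads (interval 0.243 to 0.418) and the highest on 441 reads (2.32 to 2.80), a 7.91-fold difference. The range of 2.65 was the 9th widest among the 5713 genes that reached the coverage minimum of 5 reads per base on average, and 1.96 without time point 4.

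SOL3 (YHR163W, chromosome VIII, 423724 to 424473, plus strand) had its highest level, 2.58 (2.35 to 2.83), at time point 4, where SOL4 had its lowest. Its other 15 values lay between 1.57 and 2.19, with a median of 1.82 over all 16. SOL3 therefore stood above the genome average in every library. Its high point was 1 OX library, and at time point 5, also in OX, it was at 1.58, close to its lowest level. The ratio of SOL4 to SOL3 ranged between 0.125 (time point 4) and 1.56 (time point 16), a 12.5-fold difference. SOL4 exceeded SOL3 at 7 time points (1, 2 and 12 to 16), and the pair was nearly level at time point 11, with a ratio of 0.976. Across the 16 time points, which come from 1 culture series and share their libraries, the log2 levels of both genes had an r of -0.54, which became -0.21 without time point 4. The opposite course of SOL4 and SOL3 therefore rested largely on that library, while the low SOL4 levels at time points 5 to 10 did not.

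**Figure D1:**
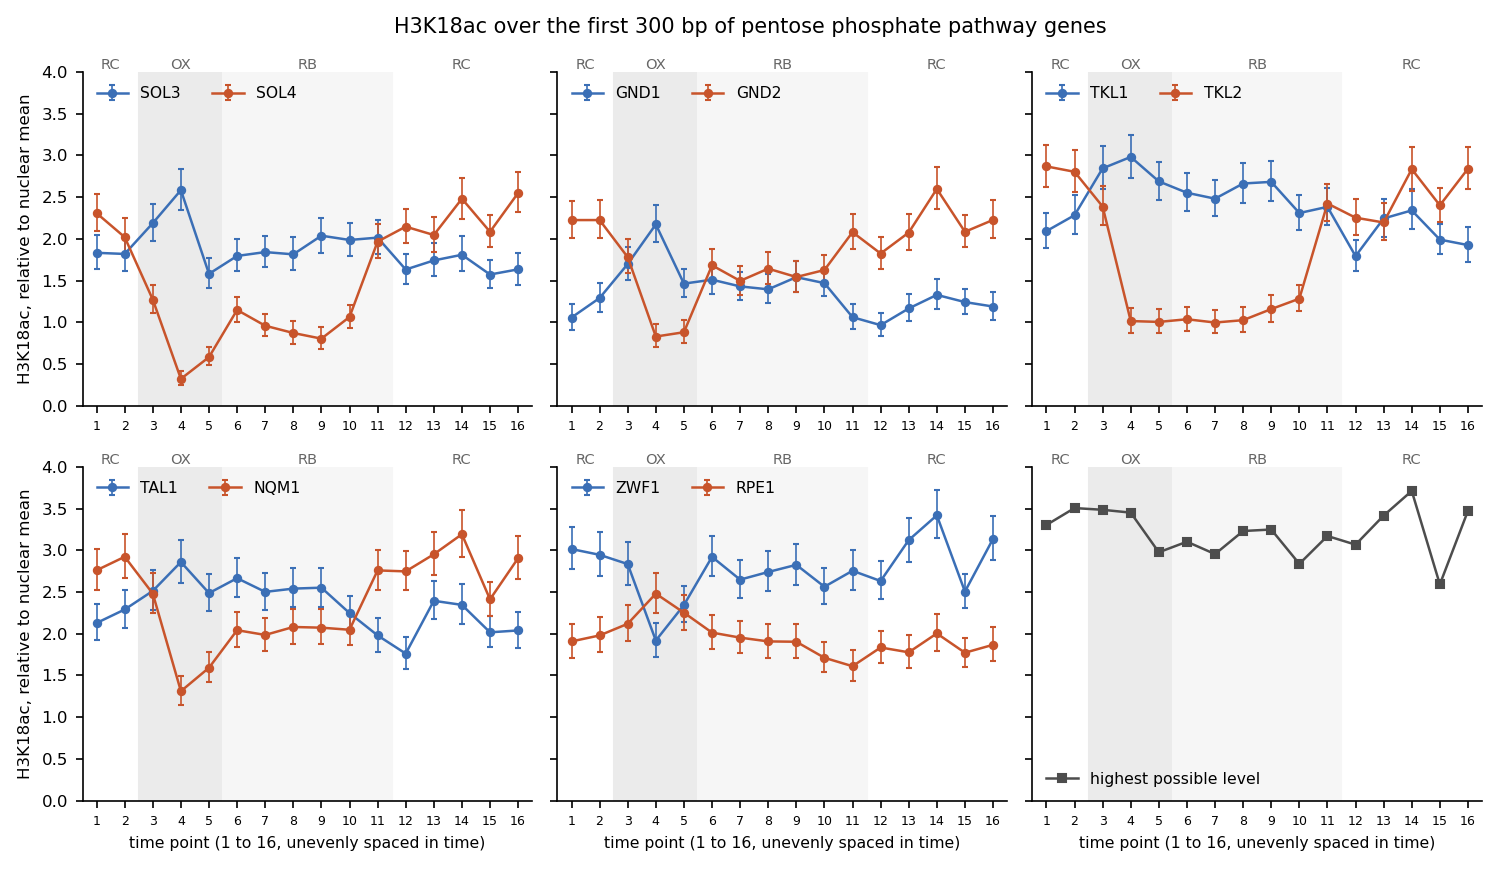
H3K18ac level (mean coverage over the first 300 bp divided by mean nuclear coverage, y axis) of the 10 pentose phosphate pathway genes at each time point (x axis, time-point number, unevenly spaced in hours), 1 library per point, with 95% Poisson intervals, shading for OX and RB, and the highest level each library allows in the last panel. SOL4, GND2, TKL2 and NQM1 sit low at time points 4 to 10 and high from time point 11. SOL3, GND1, RPE1, TKL1 and TAL1 peak at time point 4 in the coverage as deposited.

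GND1 and GND2 encode 6-phosphogluconate dehydrogenase, the second NADPH-yielding enzyme, which releases CO2 and forms ribulose-5-phosphate. GND2 (YGR256W, chromosome VII, 1004624 to 1006102, plus strand) lay between 1.82 and 2.60 at time points 1, 2 and 11 to 16 and at 1.78 at time point 3. It was 0.829 (0.699 to 0.975) at time point 4, 0.881 at time point 5 and between 1.50 and 1.68 at time points 6 to 10. Unlike SOL4, GND2 had thus regained most of its level by time point 6, at 2.03 times its value at time point 4, and took only a small further step between time points 10 and 11, of 1.28-fold. GND1 (YHR183W, chromosome VIII, 470960 to 472429, plus strand) followed the opposite course, with 1.70 at time point 3, 2.17 (1.96 to 2.40) at time point 4, 1.40 to 1.54 at time points 5 to 10, and 0.966 to 1.33 at the other time points. GND1 thus stood higher throughout time points 4 to 10 than at 1, 2 and 11 to 16. GND1 was lowest at time point 12, with 189 reads (0.833 to 1.11). GND2 exceeded GND1 in every library but those of time points 4 and 5, with ratios between 0.382 (time point 4) and 2.11 (time point 1), and of 1.00 at time point 9. The r of their profiles was -0.68, and -0.48 without time point 4.

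TKL1 and TKL2 encode transketolase, which moves 2-carbon units between sugar phosphates. TKL2 (YBR117C, chromosome II, 474392 to 476437, minus strand) was at 2.87, 2.80 and 2.39 at time points 1 to 3 and at 1.02 at time point 4. It then lay between 0.997 and 1.28 through time points 5 to 10, and between 2.20 and 2.84 at time points 11 to 16. TKL2 had no partial recovery at time point 6, where it stood at 1.02 times its level at time point 4, against 3.56 times for SOL4. It stayed near the genome average over 7 libraries and was 1.89 times higher at time point 11 than at time point 10. Across all genes, with gene means subtracted, the libraries of time points 10 and 11 were the least alike of any neighbours (r = 0.19). The part of this in the step of TKL2 and SOL4 was not tested. TKL1 (YPR074C, chromosome XVI, 692796 to 694838, minus strand) ran between 1.79 (time point 12) and 2.98 (time point 4), with a median of 2.36. TKL1 exceeded TKL2 at time points 3 to 10 and, narrowly, at 13, where the ratio of TKL2 to TKL1 was 0.978. That ratio ranged between 0.340 (time point 4) and 1.48 (time point 16), and the r of the profiles was -0.64 (-0.59 without time point 4).

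The transaldolases, which move 3-carbon units, formed the pair with the smallest spread of its ratio. NQM1 (YGR043C, chromosome VII, 580435 to 581436, minus strand) was at 2.76, 2.92 and 2.48 at time points 1 to 3, 1.31 (1.15 to 1.49) at time point 4 and 1.59 at time point 5. It lay between 1.99 and 2.08 at time points 6 to 10 and between 2.41 and 3.19 at time points 11 to 16. NQM1 thus remained above the genome average in all 16 libraries, including those in which it was lowest. TAL1 (YLR354C, chromosome XII, 836350 to 837357, minus strand) ran between 1.76 (time point 12) and 2.86 (time point 4), with a median of 2.37. The ratio of NQM1 to TAL1 ranged between 0.459 (time point 4) and 1.56 (time point 12), and NQM1 was the higher of the pair at 8 time points (1, 2 and 11 to 16). Their profiles had an r of -0.64, and of -0.52 without time point 4.

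The enzymes without a paralog in this list divided between the same courses. ZWF1 (YNL241C, chromosome XIV, 196426 to 197943, minus strand) encodes glucose-6-phosphate dehydrogenase, which commits glucose-6-phosphate to the pathway. Its level was 1.92 (1.71 to 2.13) at time point 4, 2.34 at time point 5 and between 2.50 and 3.42 at the other 14 time points. ZWF1 shared the low point of SOL4, GND2 and NQM1 but not the low RB levels of SOL4 and TKL2. Up to 90.7% of its bases lay within 10 reads of the coverage limit, more than in any other member, so its upper values are the most compressed, and its range was 0.80 as deposited and 1.89 after a correction for the ceiling. RPE1 (YJL121C, chromosome X, 190374 to 191090, minus strand), the epimerase that converts ribulose-5-phosphate to xylulose-5-phosphate, had the narrowest range, 0.59. It ran between 1.61 (time point 11) and 2.48 (time point 4), with a median of 1.91.

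**Figure D2:**
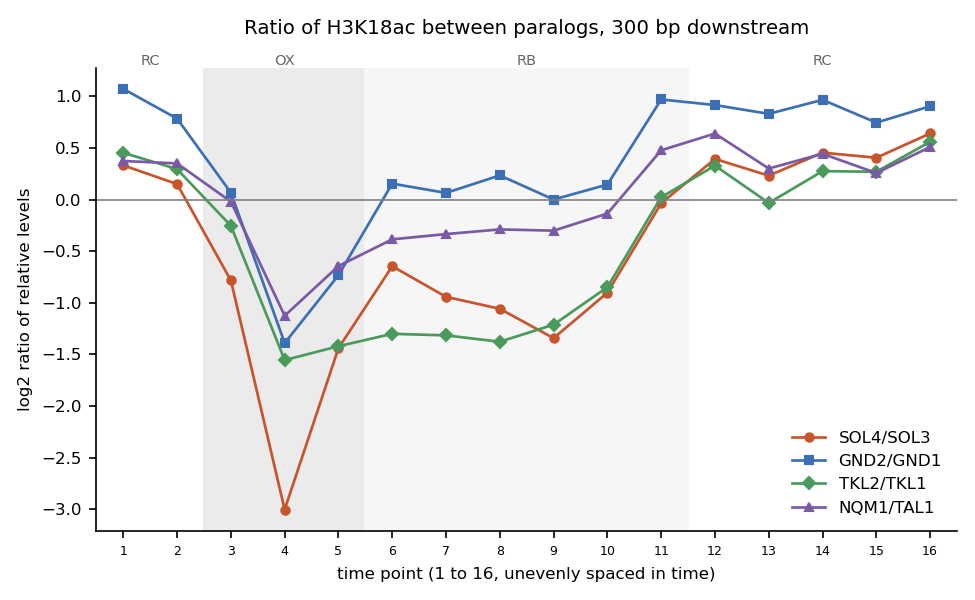
Log2 ratio of H3K18ac levels within each paralog pair (y axis, lines for SOL4/SOL3, GND2/GND1, TKL2/TKL1 and NQM1/TAL1) at each of the 16 time points (x axis), 1 library each, with shading for OX and RB. In the coverage as deposited, all 4 lines are lowest at time point 4, where the ratios lie between 0.125 and 0.459. All lie above 0 at time points 1, 2, 12, 14, 15 and 16.

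Side by side, the minor paralog of every pair had the wider range in the downstream region and upstream. In the gene interior this held for 3 pairs, and TKL2, with 0.27, had a narrower range than TKL1, with 0.44. The downstream differences in range were 1.97 for SOL4 and SOL3, 0.73 for TKL2 and TKL1, 0.55 for NQM1 and TAL1 and 0.45 for GND2 and GND1. The residual SD of the log2 ratio around its own cubic curve in time was 0.55, 0.30, 0.27 and 0.40 in the same order. It holds both the scatter of single time points and any change too sharp for a cubic to follow. It is therefore not an error of these differences. The difference for GND2 and GND1 was 0.70 without time point 4 and 0.23 without time point 14. In the coverage as deposited, every downstream ratio was at its lowest at time point 4. In that OX library SOL3, GND1, TKL1 and TAL1 had the higher H3K18ac level. After the ceiling correction the ratio of TKL2 to TKL1 was slightly lower at time point 5 (levels of 0.798 and 5.08) than at time point 4 (0.768 and 4.73). In the RC libraries SOL4, GND2, TKL2 and NQM1 had the higher downstream level, with the exception of TKL2 at time point 13. This did not hold throughout in the other regions. Upstream, the ratio of SOL4 to SOL3 was 0.934 at time point 2, and in the interior that of TKL2 to TKL1 was 1.01 at time point 4. Expression of the paralogs was not measured here.

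The profiles of SOL4, GND2, TKL2 and NQM1 had r values between 0.80 and 0.96 with each other over the 16 time points, with a median of 0.91 over 6 gene pairs. ZWF1 had an r between 0.58 and 0.85 with these 4 genes. Among SOL3, GND1, RPE1, TKL1 and TAL1 the values lay between 0.38 and 0.89, with a median of 0.68. Every r between a gene of the first set of 4 and one of these 5 was negative, between -0.82 and -0.26. These values describe 16 libraries that all genes share, and the sets were read from the profiles themselves.

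**Figure D3:**
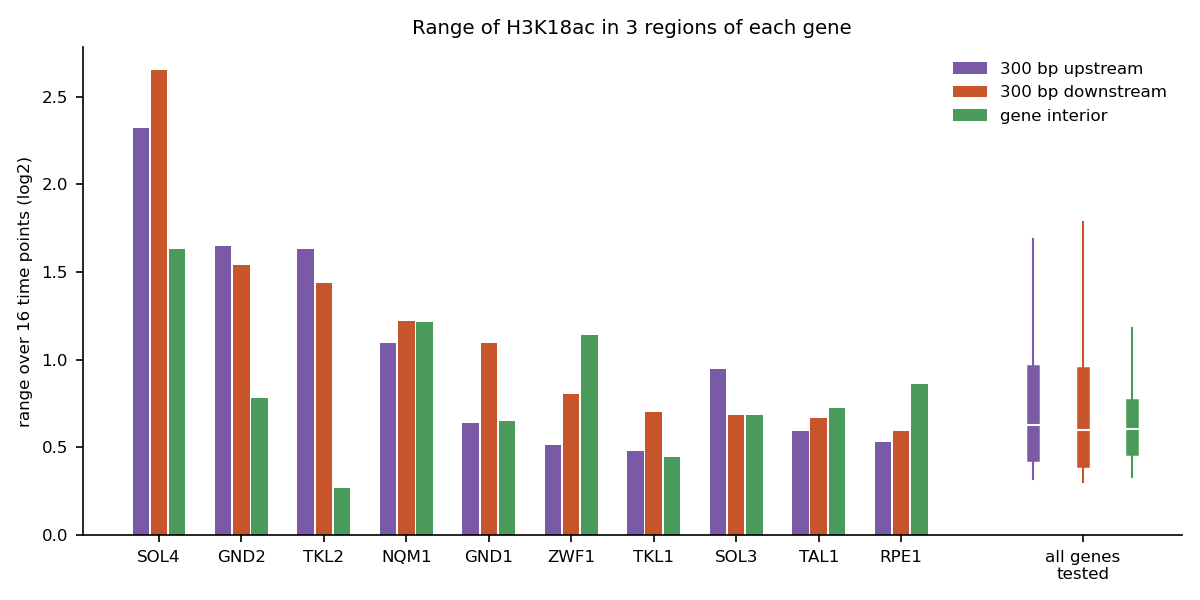
Range of H3K18ac over 16 time points (highest minus lowest log2(level + 0.1), y axis) of the 10 members in the upstream, downstream and interior regions (bars), beside all genes tested (thick lines from the 25th to the 75th percentile, thin lines from the 5th to the 95th, white marks at the median). In the downstream region SOL4 (2.65), GND2 (1.54), TKL2 (1.44), NQM1 (1.22) and GND1 (1.09) exceed 1, and RPE1 (0.59) lies next to the median of all genes, 0.60.

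All 10 members passed the coverage minimum. Their median range was 0.95, against 0.60 over the 5713 genes tested. A range over 1, a 2-fold difference on this scale, was found for 5 members (SOL4, GND2, TKL2, NQM1 and GND1) and for 21.9% of all genes. A cubic trend in time had an adjusted p below 0.05 for 8 members, ZWF1 and SOL3 being the exceptions, and for 64.2% of all genes. Time point 4 was the lowest of the 16 for ZWF1, SOL4, GND2 and NQM1, as for 18.2% of all genes. It was the highest for SOL3, GND1, RPE1, TKL1 and TAL1, as for 31.2%. These counts use coverage as deposited. After the ceiling correction TKL1 was highest at time point 5 (5.08, against 4.73 at time point 4). TAL1 was then highest at time point 6 (4.27, against 4.03 at time point 4). TKL2, lowest at time point 7 as deposited, was then lowest at time point 4 (0.768, against 0.833 at time point 7). The values at time points 4 to 10 did not overlap those at 11 to 16, 1 and 2 in 5 members, lying below them in SOL4, GND2, TKL2 and NQM1 and above them in GND1, and did not overlap in 14.1% of all genes in either direction (626 below and 181 above). This split was chosen after the values were seen. Without time point 4 the count of members with a range over 1 was 3 (SOL4, GND2 and TKL2). With a pseudocount of 1 it was 1 (SOL4), and after the ceiling correction it was 9. The share of all genes was not counted under these settings, and the 21.9% holds for the main setting only. With a cubic in hours in place of the time-point number, 3 members had a called trend, against 1893 of the 5713 genes tested. As the members were chosen with these values known, the shares over all genes serve as background and nothing is read from the difference.

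The same courses extended upstream of the start codon for some members and not for others. Over the 300 bp upstream, which hold the promoter, 4 members had a range over 1 (SOL4 with 2.32, GND2 with 1.65, TKL2 with 1.63 and NQM1 with 1.10), against 21.5% of all genes. Upstream and downstream log2 levels had an r of 0.99 for both TKL2 and SOL4, 0.98 for GND2 and 0.97 for NQM1, 0.91 for RPE1, 0.90 for SOL3 and 0.84 for TKL1. The values were 0.62 for GND1, 0.43 for TAL1 and 0.18 for ZWF1. In GND1 the upstream range was 0.64 against 1.09 downstream, and its interior range was 0.65, so the wider variation lay in the first 300 bp of the coding region. Within pairs, the upstream ratio of NQM1 to TAL1 exceeded 1 at 15 time points, the exception being time point 4 (0.803), whereas downstream it did so at 8. The upstream ratio exceeded 1 at 6 time points for SOL4 to SOL3, 13 for GND2 to GND1 and 9 for TKL2 to TKL1. The r of the upstream profiles was -0.15 for NQM1 and TAL1, -0.29 for SOL4 and SOL3, -0.41 for GND2 and GND1 and -0.55 for TKL2 and TKL1, closer to 0 than downstream in all 4 pairs. The upstream windows of SOL4 and SOL3 take in the last 14 bp of CPD1 and the last 38 bp of MPC2, their upstream neighbours.

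From the first 300 bp onwards to the end of the coding region, the median level of each member was lower than in the first 300 bp, although SOL4 at time point 4 and TKL2 at time points 4, 5 and 8 were higher there. Ranges were narrower for 6 of the 10 members, the exceptions being ZWF1, TAL1, RPE1 and, at the same width, SOL3. SOL4 ran between 0.411 (time point 4) and 1.48 (time point 15) there, and NQM1 between 0.674 (time point 4) and 1.70 (time point 12). ZWF1 was lowest at time point 4 and reached 1.67 at time point 11, a range of 1.14. These 3 genes had a range over 1 in the interior, against 7.90% of all genes. TKL2 had the opposite pattern, with interior levels between 0.893 and 1.09 and a range of 0.27, although the same gene differed 2.88-fold at its start. Its interior r with the downstream region was -0.11, against 0.92 for SOL4. The cubic trend was called in the interior for 9 members, with TKL2 the exception, and for 79.1% of all genes. The ratio of SOL4 to SOL3 varied 5.42-fold in the interior, that of NQM1 to TAL1 3.61-fold, that of GND2 to GND1 2.86-fold and that of TKL2 to TKL1 1.38-fold.

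**Figure D4:**
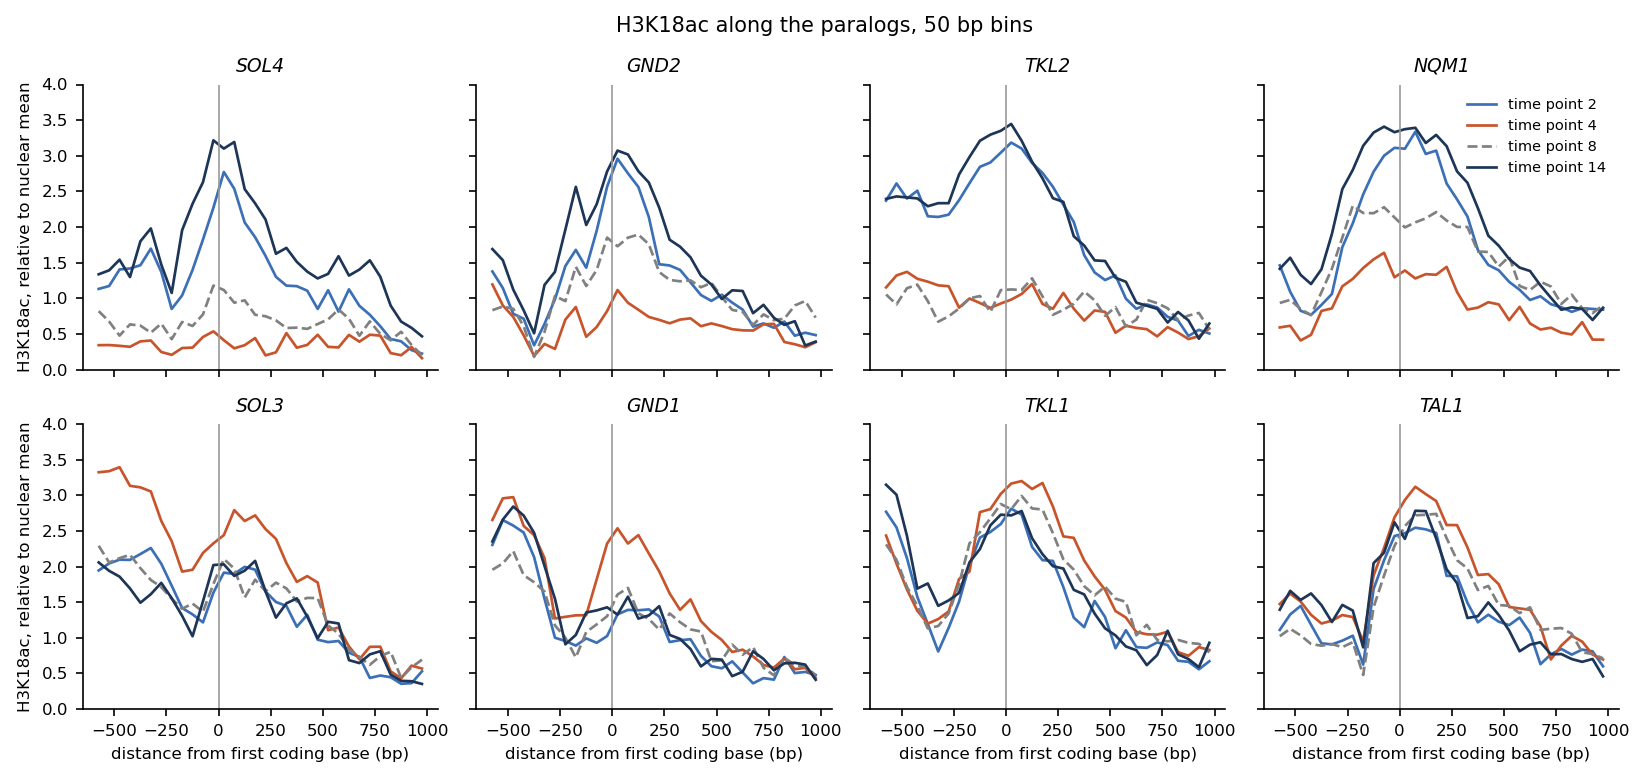
H3K18ac level in bins of 50 bp (y axis) against distance from the first coding base (x axis, -600 to 1000 bp, in the direction of transcription) for the 8 paralogs at time points 2, 4, 8 and 14, 1 library per line. SOL4 is low across the whole window at time point 4, where its highest bin is 0.536, and the lines of TKL2 meet in the later part of the coding region.

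In bins of 50 bp, SOL4 at time point 4 did not exceed 0.536 anywhere between -600 and 1000 bp, while at time point 14 it reached 3.22 just upstream of the start (-50 to 0 bp). Its level at time point 4 was below that at time point 14 in all 32 bins, at 0.0932 to 0.192 times within 300 bp of the start and 0.195 to 0.539 times from 300 bp on. GND2 and NQM1 were also below in all 32 bins, as was ZWF1, and TKL2 in 31. SOL3 was below in 2 bins, GND1 and TAL1 in 8 each, TKL1 in 10 and RPE1 in none. The widest single bin in SOL4, with a range of 3.05, lay 50 to 100 bp after the start, in the region where a first nucleosome of the coding region is usually found. For RPE1 the widest bin, with a range of 1.93, lay at 900 to 950 bp, beyond the end of its 717 bp coding region, so that value belongs to the sequence past the gene.

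A further list of 12 genes held RKI1, a core enzyme of the non-oxidative branch that is not among the 10, and genes linked to the pathway: SHB17, XKS1, RBK1, SOL1, SOL2, YDR248C and PRS1 to PRS5. Of these, 7 were highest at time point 4 (31.2% of all genes) and 3 were lowest there (18.2%). A range over 1 was found for 6 (21.9% of all genes), and 8 had a called trend (64.2%), with a median range of 0.96. RKI1, which makes ribose-5-phosphate from ribulose-5-phosphate, ran between 0.726 (time point 12) and 3.29 (time point 4), a range of 2.04. All 5 PRS genes, whose products make the nucleotide precursor PRPP from ribose-5-phosphate, were highest at time point 4, PRS3 reaching 3.39 (range 1.52). SHB17, the sedoheptulose bisphosphatase of riboneogenesis, was also highest there, at 2.80 (range 1.02). The members of this list that were lowest at time point 4 were XKS1 (xylulokinase, 0.612, range 1.33) and the SOL family members SOL1 (0.848, range 1.13) and SOL2 (1.13, range 1.02). RBK1, the ribokinase, followed neither course, with 1.76 at time point 4, a maximum of 2.19 at time point 11 and a range of 0.34.

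Other sources of NADPH formed a list of 8 genes (ALD6, IDP1, IDP2, IDP3, MAE1, POS5, UTR1 and YEF1), with a median range of 0.74 and 6 called trends, against 64.2% of all genes. IDP2, the cytosolic NADP-dependent isocitrate dehydrogenase, had 0.912 at time point 4 and 2.79 at time point 14, a range of 1.51. YEF1, an NAD kinase, ran between 0.644 (time point 5) and 2.14 (time point 14), a range of 1.59. These 2 were the only genes of the list with a range over 1, against 21.9% of all genes. ALD6, the cytosolic aldehyde dehydrogenase that is a main NADPH source beside ZWF1, stayed between 2.32 and 3.26 and, like ZWF1, was lowest at time point 4. MAE1, the malic enzyme, was highest there, at 3.29. Of the 8 genes, 2 were lowest at time point 4 (18.2% of all genes) and 1 was highest there (31.2%). Of 5 regulators of oxidative stress and nutrient-limitation genes (STB5, YAP1, MSN2, MSN4 and GIS1), 3 had a called trend (64.2% of all genes) and the median range was 0.71. GIS1 alone had a range over 1 (21.9% of all genes), with 0.718 at time point 4 and 1.85 at time point 11. Time point 4 was the lowest of the 16 for 1 regulator (18.2% of all genes) and the highest for 1 (31.2%). STB5, which regulates pentose phosphate pathway genes under oxidative stress, ran between 1.72 (time point 7) and 2.87 (time point 3).

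**Figure D5:**
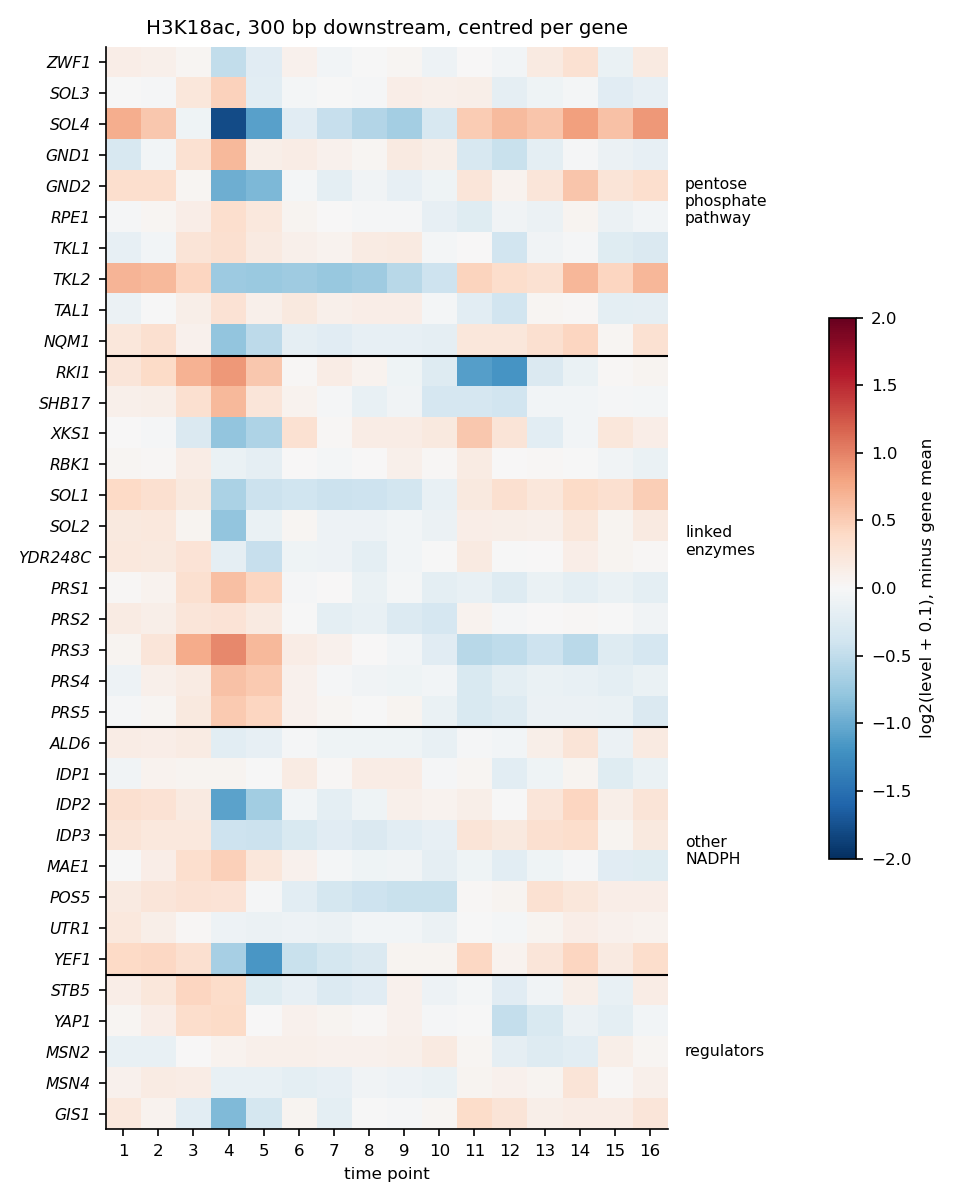
Log2 H3K18ac level of each gene, centred on its own mean over 16 time points (colour), for the 10 members, the 12 genes of the linked list, the 8 other NADPH sources and the 5 regulators (rows) at each time point (columns), 1 library each. The column of time point 4 holds both the lowest values of SOL4, GND2, NQM1, SOL1, SOL2 and IDP2 and the highest of GND1, RKI1 and the PRS genes.

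The genes whose downstream profile was most like that of SOL4 were sought among the 1251 other genes with a range over 1. The closest 5 were SAF1 (r = 0.986), HFD1 (0.985), YGR127W (0.984), GID11 (0.983) and EIS1 (0.983), over 16 time points. SAF1 encodes an F-box protein and HFD1 a fatty aldehyde dehydrogenase. GID11, a substrate receptor of the GID ubiquitin ligase, had nearly the width of SOL4, from 0.353 to 2.71. All 5 were lowest at time point 4. Among these 1251 genes with a range over 1, 193 (15.4%) had an r above 0.9 with SOL4. Genes with a narrower range were not compared. Of the pathway, NQM1 ranked 43rd (0.962), GND2 93rd (0.937) and TKL2 227th (0.882), while SOL1 ranked 96th (0.936), SOL2 204th (0.894) and GND1 1148th (-0.825).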

How the data were processed

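The authors mapped trimmed reads to the yeast genome of Ensembl release 91, discarded multimapped reads, removed duplicates and deposited coverage signal as whole reads over each base. Bowtie is named in the study's methods, whereas the submitters' processing notes name STAR, Trimmomatic 0.32, SAMtools and bedtools. Coverage was used as deposited. From the ceiling of 102 reads per base, a read length of 51 bp was inferred, with 1 read kept per position and strand. Gene starts came from a RefSeq table (R64), which holds coding regions. Region means were divided by mean nuclear coverage (the mitochondrial chromosome was left out) and set on a log2 scale with a pseudocount of 0.1. The fits took in every gene averaging 5 reads per base or more, 5713 downstream, 5755 upstream and 5028 in the interior (at least 150 bp long). The trend was limma's moderated F test (limma 3.58.1, R 4.3.3) of a polynomial of degree 3 in the time-point number, Benjamini-Hochberg adjusted over all genes. Neighbouring time points are not independent. Tables and plots came from Python 3.11.15 (matplotlib 3.10.9 for figures, pandas 2.3.3 and numpy 2.4.6 for tables, scipy 1.17.1 for intervals). Tested on simulated data with 5713 genes, the fit recovered 98% of trends with an amplitude of 0.5 (log2) and 100% with an amplitude of 1. It made 9 false calls. These amplitudes are not ranges from lowest to highest value as used above. The simulation left out the likeness of neighbouring libraries, so neither the recovery nor the false calls give the error rates of the real series.

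The members and the lists were chosen with earlier results of these data known. Named genes were the 10 members, the 5 genes closest to SOL4, and genes of the 3 lists with a range over 1 or needed beside a member. ALD6, MAE1 and STB5 were named after their values were seen. Alternatives were other pseudocounts, coverage minimums, scalings, regions and time models, a correction for the ceiling, depth as a covariate, 15 aligned time points and leaving out each time point. The 600 bp of both regions together was chosen after seeing the data. Sequence motifs were not analysed here.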

Additional observations from a re-analysis of the deposited data

How the results depend on the processing

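The wider range of the minor paralog held in all 4 pairs under the 25 alternatives run for ranges. The gene interior was not one of them, and there TKL2 had the narrower range (0.27 against 0.44). No listed result reversed. Of 239 alternative values of the main results, 226 stayed within the set limits and 13 moved, as did 41 of 250 values for single genes. Most of these values came from leaving out 1 time point. A range can then change only if its highest or lowest time point is the one left out, so these counts do not measure robustness. With a pseudocount of 1, 1 member had a range over 1 and SOL4 exceeded SOL3 by 0.95. For the counts of members with a range over 1 given here, no share over all genes was counted. Corrected for the coverage ceiling, 9 members had a range over 1 (RPE1 was the exception, at 0.81), and the differences were 0.85 for GND2 and GND1, 1.15 for TKL2 and TKL1 and 1.03 for NQM1 and TAL1. In the upstream region the differences were 1.38 for SOL4 and SOL3, 1.01 for GND2 and GND1 and 1.15 for TKL2 and TKL1. There 5 members had a called trend, against 4250 of the 5755 genes tested. With a cubic in hours, 1893 genes and 3 members had a called trend, in place of 3669 and 8. Leaving out each time point gave 3 to 5 members with a range over 1, the 3 without time point 4, and differences of 1.50 to 1.97, 0.23 to 0.70, 0.72 to 0.83 and 0.39 to 0.71 for SOL4, GND2, TKL2 and NQM1 against their partners. ZWF1 at time points 6 to 10 against 12 to 16 differed by -0.18 in median log2 level, and by 0.00 after quantile normalization. Each value rests on 1 library. Its coverage ceiling caps the level at between 2.59 and 3.71, by library, and lower levels were affected too. SOL4 at time point 15, with a level of 2.08, had 29.3% of its bases within 10 reads of the ceiling. No paired analysis was possible because each time point has 1 library.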
